A study of Saccharomyces cerevisiae with 4 samples.

Results

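The transcripts described here encode the proteins of the large subunit of the cytosolic ribosome of Saccharomyces cerevisiae, budding yeast. The genes were taken by name: every RPL gene with a number, in both copies where there are 2, and the stalk genes RPP0, RPP1A, RPP1B, RPP2A and RPP2B. Of 81 such genes, 24 carried at least 1 of the 1892 positions that the authors list as high-confidence sites of 5-formylcytidine (f5C), and together they held 29 of these positions. In the whole list 1253 genes had a site. Genes of mitochondrial ribosomal proteins (MRPL) and of ribonuclease P (RPP1) were not counted as members.

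Poly(A)+ RNA came from a yeast culture started from a single colony and grown overnight at 28 °C in rich medium with glucose. In the 2 treated libraries, replicates 1 and 2, the fragmented mRNA was exposed to 0.9 M pyridine borane at pH 5.2 and 37 °C for 24 h. The 2 input libraries, also numbered 1 and 2, were made from mRNA without this treatment. The strain and its genotype are not given in the labels, and all 4 libraries share the same growth protocol. Whether replicates 1 and 2 came from 1 culture or from separate cultures is not stated. For each listed position and library the deposited table gives the reads covering it and the reads mutated there, and the share of mutated over covering reads is called the level below. The 29 positions were covered by 834 to 7570 reads in treated replicate 1 and by 584 to 5328 in treated replicate 2. In the input libraries they had 714 to 6713 reads (replicate 1) and 548 to 5438 reads (replicate 2).

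The large subunit joins amino acids into protein and holds the tunnel through which the new chain leaves. Most of its proteins are encoded by a pair of genes that arose when the yeast genome was duplicated, and the transcripts of such a pair are often so alike that a short read can match both. 5-formylcytidine is an oxidised form of 5-methylcytidine. Pyridine borane reduces it to a base that reverse transcriptase reads as uridine, so a modified position appears as a mismatch in treated RNA. The table does not name the base at a position, and no sequence around the sites was used here.

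The 29 sites had low and similar levels. The median treated level was 8.53%, with quartiles of 7.99% and 9.29%, and the range ran from 7.56% in RPL16A to 11.97% in RPL4B. Over all 1892 listed sites the median was 9.002%, the quartiles were 8.35% and 10.1%, and the highest level was 99.0%. Levels of at least 10% in both treated replicates were found at 3 of the 29 sites (10.3%), in RPL4A, RPL4B and RPP0, and at 299 of all 1892 (15.8%). No level below 7.5% is listed in either treated library for any gene, so these medians describe sites above that minimum. The RNA is that of a whole culture, in which a few cells with much modified RNA and many cells with little cannot be told apart.

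Every listed large-subunit site was nearly unmutated in input. Mutated reads made up 0.0593% of the covering reads of the 29 sites in input replicate 1 and 0.0543% in input replicate 2. In treated replicates 1 and 2 they made up 8.75% and 8.88%. Over all 1892 listed sites the shares were 0.0473% and 0.0444% in input and 8.84% and 8.91% in treated replicates 1 and 2. The list was selected for this contrast, so a low input share is partly fixed by that choice. The highest input fraction at any of them was 0.281%, from 3 of 1069 reads at a site of RPL36A in replicate 1. No mutated read was seen in either input library at the sites of RPL6A, RPL9B and RPL11B and at the upstream site of RPL9A. A count of 0 there allows an input share of up to 0.0561%, 0.128%, 0.238% and 0.0862%, respectively. Such a count was found at 4 of the 29 positions (13.8%) and at 1212 of all 1892 (64.1%). Where none of the 4 libraries fell below 1000 reads, it was found at 2 of 23 large-subunit positions (8.70%) and 51 of 314 others (16.2%). A count of 0 is thus not particular to these genes, and the shares were not tested. All 29 sites were higher in treated than in input RNA by a two-sided Fisher exact test on reads summed over replicates, with a largest Benjamini-Hochberg adjusted p of 3.66e-39. The same test called 100% of all listed sites, which the authors had selected for this contrast, so nothing about these genes is read from that count. In the authors' deposited table the treated-over-input fold change of these sites ran from 28.5 to 526 in replicate 1 and from 55.5 to 511 in replicate 2, where input held a mutated read.

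**Figure D1:**
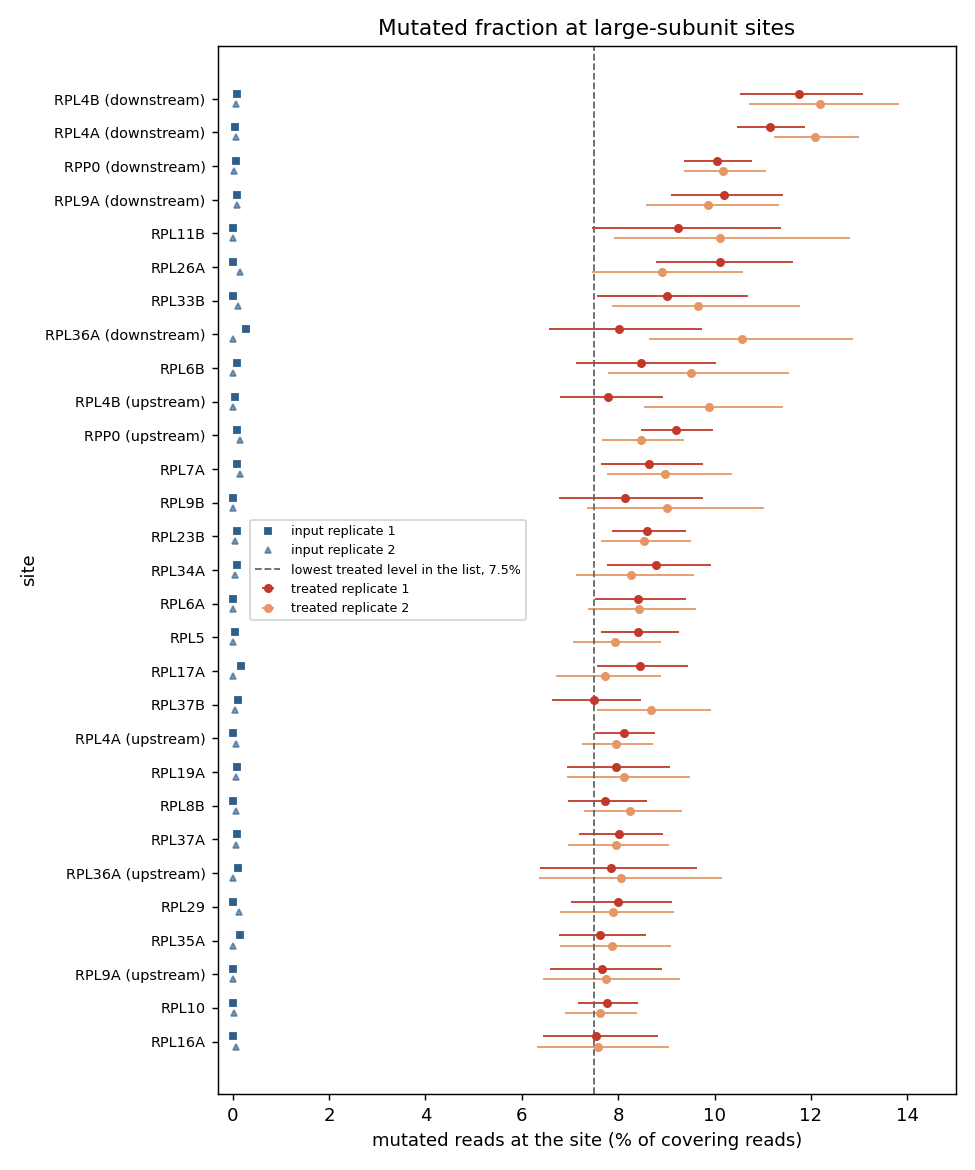
Mutated reads as a percentage of covering reads at each of the 29 large-subunit sites, ordered by mean treated level; circles are the treated replicates with Wilson 95% intervals, squares and triangles the input replicates, and the dashed line marks the lowest level in the list. Treated values lie between 7.51% and 12.2%, and input values do not exceed 0.281%.

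The highest levels were found in the RPL4 genes. RPL4A (YBR031W) and RPL4B (YDR012W) encode copies of a protein of the subunit core, which reaches into the exit tunnel. Each gene had 2 sites, 4 nt apart, at chromosome II positions 300221 and 300225 in RPL4A and at chromosome IV positions 471908 and 471912 in RPL4B, all on the plus strand. Positions are those of the deposited table, whose genome build the sources used here do not give.

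The downstream RPL4A site had levels of 11.1% and 12.1% after treatment in replicates 1 and 2, at depths of 7570 and 5328 reads, against 0.0447% and 0.0740% in input. The downstream RPL4B site had 11.7% and 12.2% at 2469 and 1698 reads, against 0.0942% and 0.0600% in input. These were the highest levels among the 29 sites in both replicates. Upstream, RPL4A had 8.12% and 7.96%, and RPL4B had 7.79% and 9.88%. The downstream site was thus higher than the upstream site in both genes and both replicates, by 3.58 ± 0.776 percentage points in RPL4A and 3.13 ± 1.16 points in RPL4B (SD, n = 2). The Wilson 95% intervals of the summed reads were 7.59% to 8.54% and 10.997% to 12.1% at the upstream and downstream sites of RPL4A, and 7.81% to 9.54% and 10.98% to 12.9% in RPL4B, so they did not overlap in either gene. A read over 1 of these positions usually covers the other, so the sites of a gene are not independent measurements. No molecular identifiers are stated for these reads, and all intervals here cover counting error alone.

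Between the copies the levels were close. Sites were matched by their order and their equal spacing, not by sequence. RPL4A minus RPL4B was -0.80 ± 1.59 points at the upstream site, with a Newcombe 95% interval from -1.60 to 0.371 points on summed reads. At the downstream site the difference was -0.35 ± 0.348 points, with an interval from -1.54 to 0.713 points (SD, n = 2). Both intervals include 0, and differences of about 1.5 points in favour of RPL4B lie within them. At the upstream site the sign differed between the replicates, with RPL4A higher by 0.326 points in replicate 1 and lower in replicate 2 (-1.92 points). With 2 libraries a group, an exact permutation over libraries cannot give a two-sided p below 0.333, and none was run.

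The copies differed in coverage. Their levels are listed only from 7.5% upward, which limits how far apart low levels can lie, so the 2 differences are not set against each other. RPL4A had 3.16 and 3.18 times the reads of RPL4B at the upstream site in input replicates 1 and 2, and 3.05 and 3.14 times in treated replicates 1 and 2. Downstream the ratios were 3.16 and 3.24 in input and 3.07 and 3.14 in treated RNA. The ratio was thus nearly the same in all 4 libraries. It was also alike at both positions, but a read over 1 position usually covers the other, so they are not separate observations. The sources used here do not give how reads matching both copies were assigned, and the part of shared reads in the like levels was not tested.

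**Figure D2:**
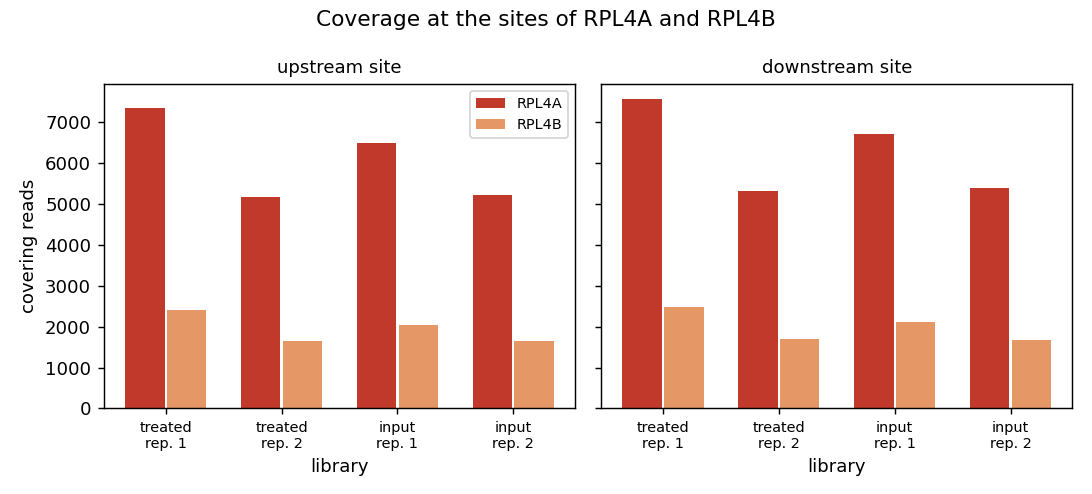
Covering reads at the upstream and downstream sites of RPL4A and RPL4B in each of the 4 libraries. RPL4A has between 3.05 and 3.24 times the reads of RPL4B in every library.

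Of the ribosomal stalk, only the base protein's transcript had listed sites. RPP0 (YLR340W) encodes the scaffold that carries the acidic stalk proteins, which recruit the GTPases of translation. It had sites at chromosome XII positions 806125 and 806151, plus strand, 26 nt apart. The downstream site had 10.04% and 10.2% mutated reads in treated replicates 1 and 2, at 7000 and 4901 reads, and 0.0649% and 0.0199% in input. The upstream site had 9.19% and 8.47%, with 0.0956% and 0.144% in input. The downstream site was higher by 1.28 ± 0.610 points (SD, n = 2), and the intervals of the summed reads, 8.35% to 9.47% and 9.57% to 10.7%, did not overlap. None of the 4 genes of the acidic proteins, RPP1A, RPP1B, RPP2A and RPP2B, had a listed site.

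RPL9A (YGL147C) and RPL36A (YMR194W) were the other genes with 2 sites. RPL9 binds near the base of the stalk, and its A copy had sites at chromosome VII positions 228170 and 228132 on the minus strand, 38 nt apart. Upstream the treated levels were 7.67% and 7.75%, and downstream 10.2% and 9.87%, a difference of 2.33 ± 0.294 points (SD, n = 2). The intervals, 6.85% to 8.65% and 9.21% to 10.99%, were separate. In RPL36A, whose sites lie at chromosome XIII positions 651686 and 651707, plus strand, the upstream site had 7.85% and 8.05% and the downstream site 8.01% and 10.6%. This difference of 1.33 ± 1.67 points was smaller than its SD between replicates, and the intervals overlapped.

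In all 5 genes with 2 sites the downstream site had the higher level, in both replicates. The sites of a gene were 4 to 38 nt apart. In the other genes of the list, 106 pairs of neighbouring sites lay within 50 nt, and the downstream site was higher in both replicates in 33 of them, lower in both in 33, and of mixed order in 40. The median difference, downstream minus upstream, was 2.33 points in the 5 large-subunit pairs and 0.0255 points in the 106 others. This comparison was made after the values had been seen and was not tested. RPL4A and RPL4B are copies that can share reads, so the 5 genes stand for 4 proteins. Sites with another site within 50 nt made up 10 of 29 large-subunit sites (34.5%) and 216 of all 1892 (11.4%). The sites of RPL4A and RPL4B are among the 10. These shares were not compared at equal depth and were not tested. At least 1000 reads in every library were found at 79.3% of the large-subunit sites and 17.8% of all listed sites.

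**Figure D3:**
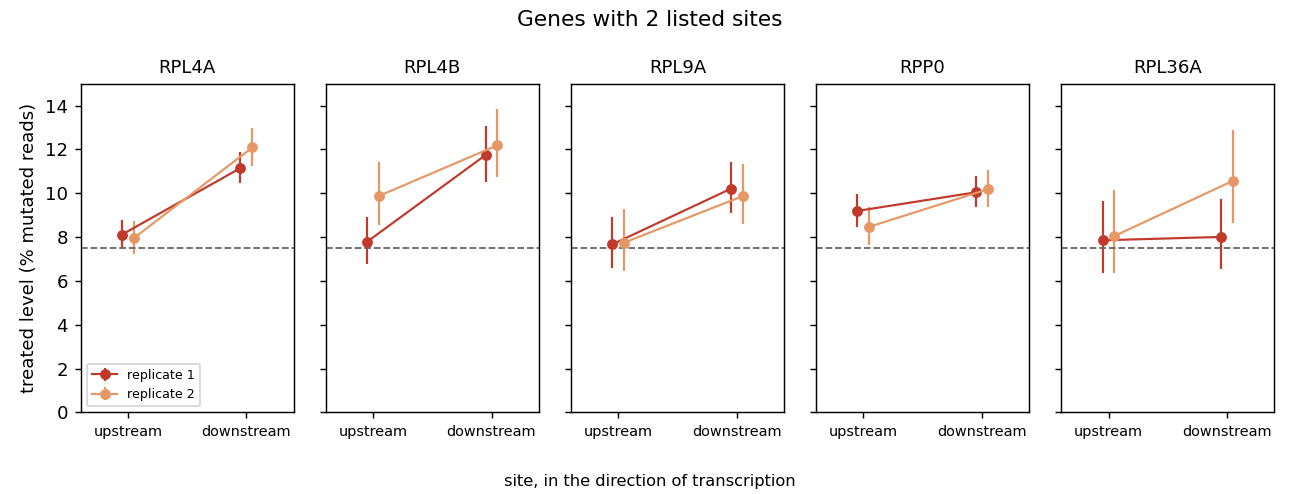
Treated level, as a percentage of covering reads, at the upstream and downstream sites of the 5 genes with 2 sites; points are the treated replicates with Wilson 95% intervals, and the dashed line marks 7.5%, the lowest level in the list. The downstream site is higher in both replicates of each gene, by a mean of 1.28 points in RPP0 to 3.58 points in RPL4A.

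The second copy of RPL9 and the genes of RPL6 and RPL37 also had sites. RPL9B (YNL067W, chromosome XIV, position 499916, plus strand) had 8.14% and 9.02% in treated replicates 1 and 2. RPL6A (YML073C, chromosome XIII, position 123357, minus strand) had 8.42% in both treated libraries, at 3339 and 2386 reads. RPL6B (YLR448W, chromosome XII, position 1029405, plus strand) had 8.46% and 9.50% at 1406 and 947 reads. The intervals of the RPL6 copies, 7.73% to 9.17% and 7.80% to 10.1%, overlapped. RPL37, a small zinc-binding protein, had a site in RPL37A (YLR185W, chromosome XII, position 523152, plus strand) with 8.02% and 7.95% and in RPL37B (YDR500C, chromosome IV, position 1450230, minus strand) with 7.51% and 8.68%. Whether the sites of these pairs lie at the same place in both transcripts was not determined, since no sequence was used.

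Of the 46 proteins, 35 are encoded by 2 genes. Both copies had a listed site in 4 of these pairs (RPL4, RPL6, RPL9 and RPL37), a single copy in 12 pairs and neither copy in 19. Where only 1 copy had a site, it was the A copy in 8 pairs and the B copy in 4. Of the 11 proteins with a single gene, 4 had a site (RPP0, RPL5, RPL10 and RPL29) and 7 had none (RPL3, RPL25, RPL28, RPL30, RPL32, RPL38 and RPL39). Absence from the list does not show a lower level: coverage and levels of positions that were not listed were not used here. At 21 of the 29 sites the Wilson interval of at least 1 treated replicate reached down to 7.5%, the lowest level in the list.

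Sites were also listed in RPL17A, RPL26A and RPL35A, whose proteins lie along the exit tunnel or at its end. RPL17A (YKL180W, chromosome XI, position 109334, plus strand), whose protein lines the tunnel, had treated levels of 8.46% and 7.73%. RPL26A (YLR344W, chromosome XII, position 819864, plus strand) encodes a protein at the tunnel exit and had 10.1% and 8.91%. RPL35A (YDL191W, chromosome IV, position 118209, plus strand), another protein of the exit, had 7.62% and 7.87%. The RPL26A level, with an interval of 8.60% to 10.7%, lay above that of RPL35A, with 7.04% to 8.46%. RPL25, RPL31A, RPL31B and RPL39, which encode further proteins of the tunnel and its exit, had no listed site.

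RPL5 and RPL11 bind the smallest rRNA of the large subunit and enter the ribosome with it as a particle. RPL5 (YPL131W, chromosome XVI, position 303284, plus strand) had treated levels of 8.42% and 7.93% at 4551 and 3379 reads. The RPL11B site (YGR085C, chromosome VII, position 648751, minus strand) had 9.23% and 10.1% at 834 and 584 reads, the lowest coverage of the 29. Their intervals, 7.63% to 8.83% and 8.17% to 11.2%, overlapped.

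At the face turned to the small subunit, RPL23B (YER117W, chromosome V, position 397396, plus strand) had 8.61% and 8.54% in treated replicates 1 and 2. RPL19A (YBR084C-A, chromosome II, position 414321, minus strand), whose protein forms a bridge to the small subunit and also lies near the tunnel exit, had 7.95% and 8.12%. RPL10 (YLR075W, chromosome XII, position 283004, plus strand), which joins the subunit late in the cytoplasm, had 7.77% and 7.61% at 7083 and 4913 reads. With an interval of 7.24% to 8.19% it was the second lowest mean level of the 29.

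The other sites lay in genes of the subunit's body and surface. RPL7A (YGL076C, chromosome VII, position 364437, minus strand) had 8.64% and 8.98%, and its annotation overlaps that of the small nucleolar RNA gene SNR39. RPL8B (YLL045C, chromosome XII, position 48387, minus strand) had 7.73% and 8.25%. RPL16A (YIL133C, chromosome IX, position 98889, minus strand) had 7.54% and 7.57%, the lowest mean level of the 29 sites. RPL29 (YFR032C-A, chromosome VI, position 223295, minus strand), whose protein is not essential for growth, had 8.005% and 7.90%. RPL33B (YOR234C, chromosome XV, position 778749, minus strand) had 9.01% and 9.65%, and RPL34A (YER056C-A, chromosome V, position 269621, minus strand) had 8.79% and 8.27%.

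In order of level, neighbouring sites lie close by construction, and overlap of their intervals is not a test of a difference. Of 28 neighbouring sites in that order, 27 had overlapping Wilson intervals. The exception lay between the downstream site of RPL4A (10.997% to 12.1%) and that of RPP0 (9.57% to 10.7%). The interval lay wholly above the members' median of 8.53% at 5 sites, wholly below it at 3, and held it at 21. The 5 were the downstream sites of RPL4A, RPL4B, RPP0 and RPL9A and the site of RPL26A.

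The treated replicates gave like levels at most of these sites. No level below 7.5% is listed in either treated library. A site low in 1 replicate may thus be absent, and the gaps and tests here do not measure agreement over all positions. The gap between replicates had a median of 0.445 percentage points over the 29 sites and of 0.870 points over all 1892. Where every library had 1000 reads or more, it was 0.333 points over 23 large-subunit sites and 0.477 points over 314 others. By two-sided Fisher exact test of treated replicate 1 against 2, 0 of 29 sites differed after Benjamini-Hochberg adjustment over all listed sites, where 0% of all sites passed. At an unadjusted p of 0.05, 1 of 29 (3.45%) passed, against 2.75% of all sites. It was the upstream site of RPL4B, with 7.79% and 9.88% (exact p = 0.0228, unadjusted; adjusted p = 1). The downstream site of RPL36A had the widest gap, 2.56 points (exact p = 0.0549, unadjusted; adjusted p = 1). The level was higher in replicate 2 at 18 of the 29 sites and in replicate 1 at 11. Over all 1892 sites these counts were 1101 and 791. Whether the replicates are separate cultures is not stated, so this spread may be technical.

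Most of the large-subunit sites were deeply covered. At least 1000 reads in every library were found at 23 of 29 large-subunit sites (79.3%) and at 337 of all 1892 (17.8%). Among sites of that depth the median level was 8.17% over the 23 large-subunit sites and 8.50% over the 314 others, and at least 10% in both treated replicates was found at 3 of the 23 (13.0%) and 24 of the 314 (7.64%). The order of these shares is the reverse of that without a depth minimum, 10.3% of large-subunit and 15.8% of all sites, and neither was tested. The 3 large-subunit sites were the downstream sites of RPL4A, RPL4B and RPP0. RPL4A and RPL4B are copies that can share reads, so these sites are not independent. Across the 29 sites the Spearman correlation of level with the lowest coverage was -0.144, and across all 1892 sites it was -0.499. The sites share libraries, so both values are descriptions.

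**Figure D4:**
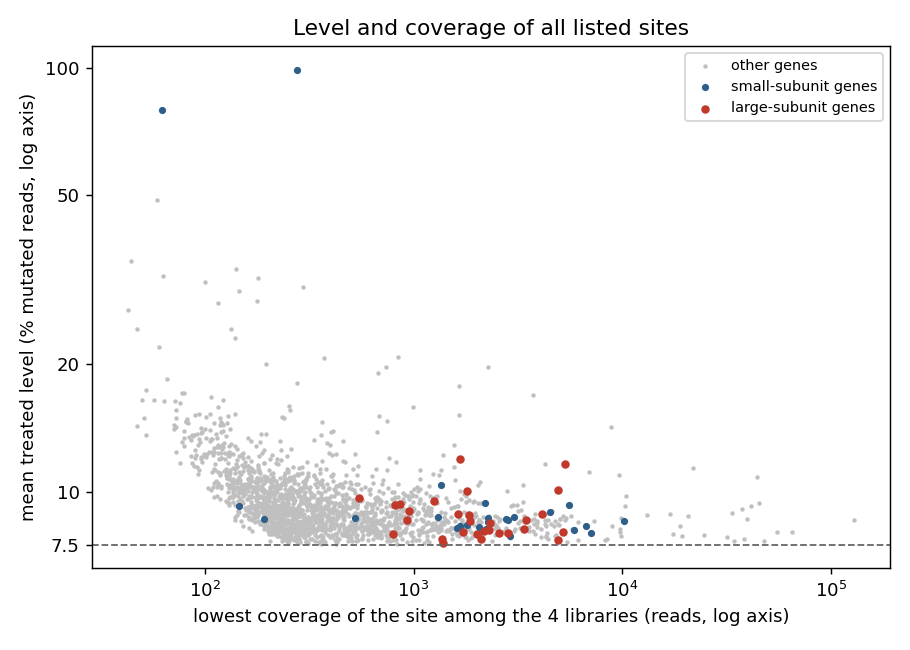
Mean treated level against the lowest coverage among the 4 libraries, both on log axes, for all 1892 listed sites; the dashed line marks 7.5%. Large-subunit sites reach at most 11.97% and have at least 548 reads in every library.

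Genes with a site made up 24 of 81 large-subunit genes (29.6%) and 20.8% of all nuclear protein-coding genes of the annotation. A higher share is not separated here from deeper coverage, gene length or the number of cytidines. In small-subunit genes, with ASC1 counted among them, 20 of 57 had a site (35.1%), a share above that of the large-subunit genes. Their 25 sites had a median level of 8.61% and a range from 7.86% to 99.0%. The highest levels were those of RPS25A and RPS25B, and the other 23 sites had a median of 8.55% and reached at most 10.4%. Large-subunit genes with more than 1 site numbered 5 of 24 (20.8%), against 425 of the 1253 genes with a site (33.9%). Coverage, gene length and the number of cytidines were not separated in this comparison either, and it was not tested.

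Of 44 assembly factors of the large subunit, 1 had a site (2.27%), against 20.8% of all nuclear protein-coding genes. This difference was not tested. Coverage of positions that were not listed was not used here, so absence from the list does not show a lower level. The gene with a site was MRT4, with treated levels of 8.90% and 9.60% at 236 and 177 reads. Its protein holds the place of RPP0 on the maturing subunit until RPP0 replaces it. Of the 4 dedicated chaperones of large-subunit proteins, SQT1, the chaperone of RPL10, had a site with 10.8% and 10.6% at 194 and 132 reads. Among mitochondrial large-subunit genes named MRPL with a number, 7 of 34 had a site (20.6%), with 2 in MRPL9. Their 8 sites had levels from 8.06% to 12.7%. Lowest coverage among the 4 libraries ran from 114 to 365 reads at these 8 sites, below the 548 reads of the shallowest cytosolic large-subunit site.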

How the data were processed

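The data are a table of 1892 positions from 2 treated and 2 input libraries, grouped by sample title. Per the file headers, the table holds for each library counts of reads that cover a position and of those mutated there. The deposited fraction equals mutated over covering reads. The authors' fold change is a ratio of treated to input fraction, and the authors' p-values and q-values are given per replicate. The submitters' processing notes name cutadapt and STAR; the sources used here do not give versions, genome build, site caller or strand settings. Library depth is unknown, and precision at each site follows from its coverage.

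Genes were found through RefSeq R64 names by locus tag, which matched 1251 of 1253 single gene names. The level is the mean of the 2 treated fractions. Treated and input reads were summed over replicates and compared by two-sided Fisher exact test, and the treated replicates with each other, with Benjamini-Hochberg adjustment over all 1892 sites at 0.05. Groups under 10 reads would have been left out, and none was. Both tests were checked on simulated data. Every member with a site is named. Members, gene lists and tests were chosen with earlier results of these data known. Python 3.11.15, numpy 2.4.6, scipy 1.17.1, pandas 2.3.3 and matplotlib 3.10.9 were used.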

Additional observations from a re-analysis of the deposited data

How the results depend on the processing

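All 29 sites stayed higher after treatment at coverage minimums of 50 and 100 reads and with either replicate left out, and the count was 23 at a minimum of 1000 reads, where 23 sites were left. It was 29 in a binomial test against the rates of 1.83% and 1.81% that solve the authors' p-values. Replicate numbers recur in both groups, no label ties a number to a shared culture, and the coverage deviations of same-numbered libraries had a correlation of -0.00502 over 1892 sites. With the replicate number as a block the Cochran-Mantel-Haenszel test called 29 sites. The authors' selection in both replicates fixes these counts. Without adjustment 1 site differed between treated replicates, against 0. The median level of 8.53% was 8.42% to 8.47% with a replicate left out, 8.17% at a minimum of 1000 reads, 8.46% after subtracting input, 8.51% on summed reads and 8.17% in genes without a second copy. In alternatives chosen after seeing the data it was 8.13% without downstream sites of genes with 2 sites and 8.42% without RPL4A and RPL4B. Genes with a site, 24 in all, numbered 19 at 1000 reads and 3 at levels of at least 10% in both replicates, by construction. RPL4A minus RPL4B ran from -1.92 to 0.326 points at the upstream and from -0.60 to -0.10 points at the downstream site with a replicate left out, and was -0.59 and -0.39 points on summed reads. Sequence around the sites was not analysed.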

Other observations

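Coverage after treatment, relative to input of the same number, varied little among the large-subunit sites. Its median over the 29 sites was 1.13 in replicate 1 and 0.976 in replicate 2, against 1.14 and 0.973 over all listed sites. RPL29 had the lowest ratio in replicate 1, 0.946, and 0.869 in replicate 2. The RPL9A sites had the lowest ratios in replicate 2, 0.862 upstream and 0.857 downstream, and 1.07 and 1.05 in replicate 1. RPL9B had 0.979 and 0.907. The highest ratio in replicate 1 was that of RPL33B, 1.26, and in replicate 2 that of RPL11B, 1.07. These ratios carry the size of the libraries and were not tested.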
